A study of Mus musculus with 18 samples.

Results

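Bcl2l15 and 9 further genes of the BCL2 family, the family that controls whether a cell dies by apoptosis, were followed across 18 RNA sequencing libraries of MC38 cells, a mouse colon adenocarcinoma line from C57BL6 animals. The members were chosen by gene name: Bcl2l15, Bcl2, Bcl2l1, Bcl2l2, Mcl1, Bcl2l11, Bid, Bak1, Pmaip1 and Bad are 10 of the 39179 genes counted, and all 10 were among the 15006 genes that passed the filter on low counts. They were selected on measured values, since the counts of all 6 groups and the differences between them were known when the genes were picked. Levels and differences of these 10 genes are therefore given as a description, with no p-value. Counts of them past the test's threshold stand beside the share over all genes, and nothing is read from those counts.

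The study compared MC38 cells with intact APC, a brake on Wnt signalling, with an isogenic APC-deleted line, each without doxycycline and after 24 h or 48 h with 1 µM doxycycline, which switches on a hairpin against Tdo2, a tryptophan-degrading enzyme. Each of the 6 groups held 3 libraries. The sample titles of the 4 treated groups name the hairpin and those of the 2 untreated groups do not, while the extraction protocol speaks of hairpin cells with and without doxycycline, so whether the untreated cells carried the hairpin is not settled by the labels. No treated group lacked the hairpin, so doxycycline and hairpin cannot be told apart. The labels give triplicates without saying how the cultures were kept apart, so a p-value here reflects only how the sequenced libraries varied, which may be technical. How many clones the APC-deleted line came from is not given in the sources used here.

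The libraries held between 71970499 and 111948430 gene counts each. A designation in the names of the deposited data, read here as 2 sequencing runs of 9 libraries, puts both untreated groups and the APC-intact 24 h group in run 1 and the other groups in run 2. APC-intact 24 h replicate 1 and APC-deleted 48 h replicate 2 stood apart from the rest on a principal component each. Their scores there were beyond 30, on components after the first 2. Within that limit, APC-intact 24 h replicate 2 scored -22.5 on component 3 and -25.9 on component 5. By chi-square per degree of freedom, which measures difference beyond sampling noise, replicate 2 lay further from replicates 1 and 3 of that group (47.1 and 72.8). Replicates 1 and 3 stood at 27.8 from each other. Tdo2 itself had 6 to 29 counts per library, with group means of 0.107 to 0.254 CPM (read counts scaled to library size), and a knockdown was not detectable at this depth. Apc stood at 112 ± 14.1 CPM (mean ± SD, n = 3) in untreated APC-intact and 75.2 ± 3.77 CPM in untreated APC-deleted cells. The epithelial markers Epcam and Cdx2 were at or near 0, with at most 1 count of Epcam and 0 counts of Cdx2 in any library. The 12 epithelial markers together reached 4.92 to 12.2 CPM, 6 of them passing the low-count filter. Cdh17 (2.40 to 5.85 CPM), Krt8 (0.881 to 3.87 CPM) and Cdh1 (0.610 to 1.89 CPM) had the highest levels of that list. The 10 fibroblast markers, led by collagen genes, summed to between 2729 and 4667 CPM, with 9 passing. Of these 10, Thy1, Acta2, Fap and Lum were low, with at most 1, 20, 39 and 112 counts in any library. Both sums were higher in the APC-deleted line at each time, for fibroblast markers 4210 to 4667 against 3528 to 3722 CPM in untreated cells, and their part in the differences between the lines was not tested. Ptprc, the pan-leukocyte marker, stayed at or below 0.0491 CPM. The list of 10 haematopoietic markers, of which 3 passed the filter, summed to 10.1 to 23.1 CPM, most of it Cd68 (9.42 to 22.8 CPM), and was higher in APC-deleted cells: 18.3 to 23.1 against 14.7 to 17.2 CPM untreated, 15.6 to 16.2 against 11.1 to 11.7 CPM at 24 h and 13.3 to 18.5 against 10.1 to 11.2 CPM at 48 h. Adgre1, a gene of this list, was not found under that name and is not in these sums. The 6 endothelial markers, 3 of them passing, were lower in APC-deleted cells, at 3.05 to 4.13 against 5.68 to 6.33 CPM untreated, 4.09 to 4.21 against 5.37 to 6.37 CPM at 24 h and 3.50 to 3.61 against 5.40 to 5.82 CPM at 48 h. The part of these 2 lists in the differences between the lines was not tested either.

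BCL2 proteins meet on the outer membrane of mitochondria. Survival members (BCL2, BCL-XL from Bcl2l1, BCL-W from Bcl2l2, MCL1) hold the pore-forming members BAK and BAX in check, and BH3-only members (BIM from Bcl2l11, BID, BAD, NOXA from Pmaip1) release that hold, after which cytochrome c leaves the mitochondria and caspases are activated. BCL2L15 is a little-studied relative known mainly from the gastrointestinal tract. In the intestine, loss of APC leaves β-catenin free to act with TCF/LEF factors on their target genes.

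Bcl2l15 (ENSMUSG00000044165) lies on the + strand at chr3:103832601-103854618 of mm10. The window around its RefSeq start is shown because the lines differ in APC, and with it the one window of a family gene that held the FOXO core motif; both are RefSeq sequences of GRCm38.p6, 250 bases before to 50 bases after the start, 5′ to 3′ on the gene's strand. In the Bcl2l15 window (chr3:103832446-103832745, + strand) capitals mark the TCF/LEF core CTTTGA, at bases 258 to 263 of the window. In the Bcl2l11 window (chr2:128125788-128126087, + strand) capitals mark GTAAACA, the FOXO core TGTTTAC read on the other strand, at bases 24 to 30.
Bcl2l15: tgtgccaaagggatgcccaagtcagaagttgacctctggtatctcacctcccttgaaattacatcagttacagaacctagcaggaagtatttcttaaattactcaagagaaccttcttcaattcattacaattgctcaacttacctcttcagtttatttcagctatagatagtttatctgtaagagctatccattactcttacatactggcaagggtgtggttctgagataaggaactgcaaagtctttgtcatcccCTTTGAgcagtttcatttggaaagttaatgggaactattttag
Bcl2l11: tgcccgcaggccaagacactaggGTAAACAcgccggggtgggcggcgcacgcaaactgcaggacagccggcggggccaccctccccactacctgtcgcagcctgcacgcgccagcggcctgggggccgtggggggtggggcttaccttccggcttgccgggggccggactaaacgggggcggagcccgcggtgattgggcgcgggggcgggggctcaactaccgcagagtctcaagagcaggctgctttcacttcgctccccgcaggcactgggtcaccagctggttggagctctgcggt
Both strands of 13 windows for 9 of the 10 genes were searched. CTTTGA was in 1 of the 13 windows and in 16.0% of 32851 promoter windows of the same length, and TGTTTAC was in 1 of 13 and in 3.65% of all windows. The E-box CACGTG, held by 7.15% of all windows, and the interferon response element (a pair of GAAA with 2 bases between them), held by 3.44%, were in 0 of the 13, which says only that these letters are not in these windows. None of the 4 motifs overlapped another in the windows shown. The Bcl2l15 window had a GC content of 38.3%, and 7.45% of all windows had a lower one. Such matches describe the sequence and are not evidence of binding.

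Bcl2l15 was higher in APC-deleted than in APC-intact cells in every library, and at 48 h of doxycycline it lay below the untreated level in APC-intact and above it in APC-deleted cells. In untreated APC-intact cells its level was 6.79, 7.33 and 6.83 CPM in replicates 1 to 3, and in untreated APC-deleted cells it was 14.7, 15.5 and 15.4 CPM. After 24 h it was 6.46, 7.27 and 6.72 CPM in APC-intact and 18.8, 21.2 and 20.2 CPM in APC-deleted cells. After 48 h it was 5.54, 4.73 and 4.80 CPM in APC-intact and 16.4, 16.3 and 16.7 CPM in APC-deleted cells. All 9 APC-deleted libraries lay above all 9 APC-intact ones, and only the APC-intact untreated and 24 h groups overlapped. The counts behind these levels ran from 452 to 2367 per library. In a bulk sample, more cells expressing a gene and more RNA per cell cannot be told apart.

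**Figure D1:**
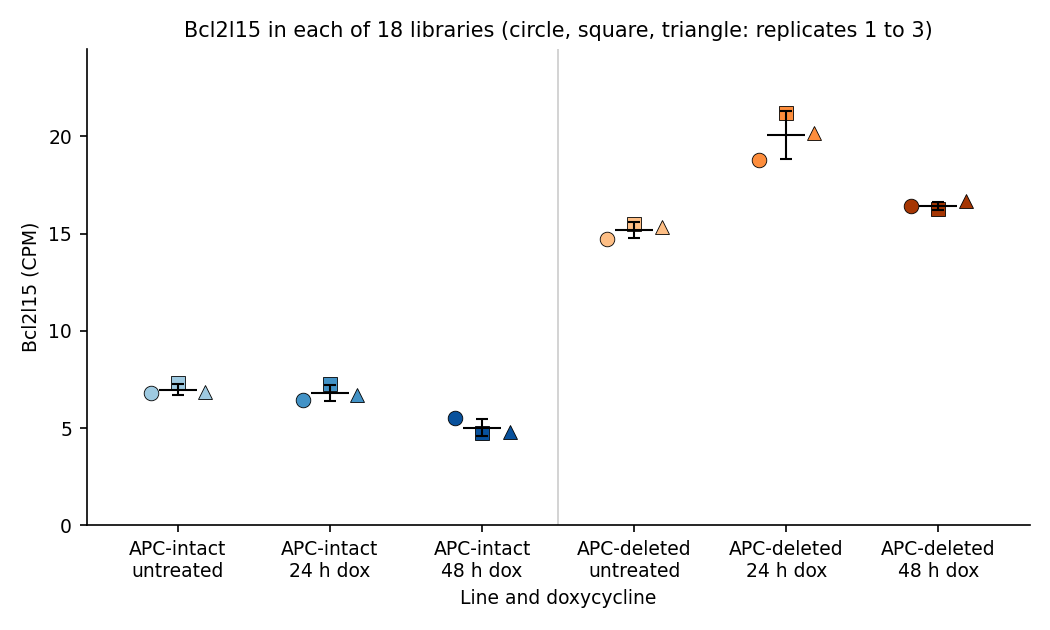
Bcl2l15 in CPM (vertical axis, from 0) in each library of the 6 groups; symbols are replicates 1 to 3, horizontal marks the group mean and bars the SD (n = 3). Every APC-deleted library lies above every APC-intact library; APC-intact 48 h is the lowest group, at 5.02 ± 0.448 CPM, and APC-deleted 24 h the highest, at 20.0 ± 1.24 CPM.

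The Bcl2l15 difference between the lines was 2.17-fold in untreated cells (log2 difference 1.12 ± 0.071, SE), 2.94-fold at 24 h (1.56 ± 0.072) and 3.27-fold at 48 h (1.71 ± 0.073). Its untreated and 48 h values each compare groups of the same run, whereas the 24 h value sets run 2 against run 1. Within the APC-intact line, Bcl2l15 at 24 h overlapped the untreated level (log2 difference -0.03 ± 0.073) and at 48 h lay below it in every library (-0.48 ± 0.074). Within the APC-deleted line it lay above the untreated level in every library at 24 h (0.40 ± 0.069) and at 48 h (0.11 ± 0.069), the latter by under 2 SE. Ordered by level, APC-intact 48 h was lowest, then APC-intact 24 h and untreated, which did not differ beyond their spread, then APC-deleted untreated, 48 h and 24 h. The APC-intact 48 h and both APC-deleted time differences set run 2 against run 1, and run and treatment cannot be told apart in them. The same holds for every gene below. Only the APC-intact 24 h difference sets treated against untreated libraries of the same run.

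The 48 h response of Bcl2l15 in the APC-deleted line exceeded that in the APC-intact line by 0.59 ± 0.101 on the log2 scale, a comparison in which the run cancels. Over all genes, 0.0267% passed an adjusted p of 0.05 for this difference, which was 4 of 15006, and 1 of the 10 family genes, Bcl2l15, was among them; since it was picked with this value known, nothing is read from the count. Its call was lost in 14 of 18 alternative settings, among them 11 of the 12 that left out a single library. The 3 other genes were Mx2, an interferon-induced gene (log2 difference 0.83, edgeR adjusted p = 0.0361), the chemokine gene Cxcl1 (0.68, edgeR adjusted p = 0.0361) and the metalloproteinase inhibitor gene Timp1 (-0.49, edgeR adjusted p = 0.0361). Their calls were lost in some settings too. In all, 0 genes passed when only the groups compared were fitted, and 0 without APC-deleted 48 h replicate 1. For the other 9 family genes the difference of responses lay between -0.11 and 0.06, each within 2 SE of 0.

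Mcl1, a survival gene, had the highest level per length of the 10 genes in every group, from 88.7 ± 5.77 to 101 ± 7.36 CPM per kilobase of exon, followed by Bcl2l1 at 40.5 ± 2.35 to 46.5 ± 1.22 CPM per kilobase. Bcl2l2 stood at 7.80 ± 0.534 to 8.88 ± 0.382 and Bcl2 at 3.58 ± 0.129 to 4.77 ± 0.146 CPM per kilobase. The 4 survival genes summed to between 142 ± 7.67 (APC-intact 24 h) and 155 ± 8.01 CPM per kilobase (APC-deleted 48 h). Most of each sum was Mcl1 and Bcl2l1.

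Bcl2, the founding survival gene of the family, was higher with doxycycline in both lines. In APC-intact cells it was 27.6, 24.5 and 27.7 CPM untreated, 32.4, 29.7 and 31.7 CPM at 24 h and 35.3, 33.2 and 34.2 CPM at 48 h. In APC-deleted cells it was 25.4, 25.0 and 26.8 CPM untreated, 29.1, 26.8 and 27.0 CPM at 24 h and 32.5, 27.7 and 31.8 CPM at 48 h. Every treated library lay above every untreated library of its line, narrowly at 24 h in APC-deleted cells. The log2 differences were 0.23 ± 0.066 and 0.36 ± 0.065 at 24 h and 48 h in APC-intact cells and 0.10 ± 0.066 and 0.25 ± 0.066 in APC-deleted cells. Between the lines Bcl2 differed by -0.05 ± 0.066 in untreated cells, where the groups overlapped. In APC-deleted cells it was lower than in APC-intact cells by a log2 difference of -0.18 ± 0.065 at 24 h, which sets run 2 against run 1, and -0.16 ± 0.065 at 48 h, with no overlap at either time.

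Bcl2l1, which encodes BCL-XL, lay lower with doxycycline in both lines. In APC-intact cells it was 219, 214 and 207 CPM untreated, 176, 197 and 183 CPM at 24 h and 193, 189 and 191 CPM at 48 h. In APC-deleted cells it was 205, 217 and 211 CPM untreated, 192, 199 and 195 CPM at 24 h and 185, 188 and 194 CPM at 48 h. No treated library reached the untreated level of its line. The log2 differences were -0.20 ± 0.046 and -0.16 ± 0.046 in APC-intact and -0.11 ± 0.046 and -0.16 ± 0.046 in APC-deleted cells. In APC-intact cells the ratio of Bcl2l1 to Bcl2 per length was 12.6 ± 0.994 untreated, 9.33 ± 0.983 at 24 h and 8.76 ± 0.175 at 48 h, and it was 12.9 ± 0.651, 11.1 ± 0.668 and 9.72 ± 0.840 in APC-deleted cells.

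Mcl1, whose short-lived product restrains BAK, ranged from 286 to 372 CPM, and its groups overlapped in all 7 comparisons of 2 groups. Its largest difference was 0.14 ± 0.065 (log2) at 48 h in APC-deleted cells. Bcl2l2, which encodes BCL-W, ranged from 32.3 to 41.3 CPM and lay above the untreated level in every library at 48 h in both lines, by 0.14 ± 0.061 in APC-intact and 0.13 ± 0.061 in APC-deleted cells. Both of these differences also set run 2 against run 1.

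Bak1, the pore-forming member, lay lower at 48 h in both lines. It was 79.2, 77.9 and 72.9 CPM in untreated and 60.0, 67.3 and 63.0 CPM in 48 h APC-intact libraries. In APC-deleted libraries it was 81.1, 87.2 and 82.7 CPM untreated and 68.0, 74.7 and 66.1 CPM at 48 h. The groups did not overlap in either line, and the log2 differences were -0.27 ± 0.060 and -0.27 ± 0.060. Both 48 h differences of Bak1 set run 2 against run 1, so run and treatment cannot be told apart in them. At 24 h the differences were smaller, -0.13 ± 0.060 with overlapping groups in APC-intact and -0.15 ± 0.060 in APC-deleted cells.

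**Figure D2:**
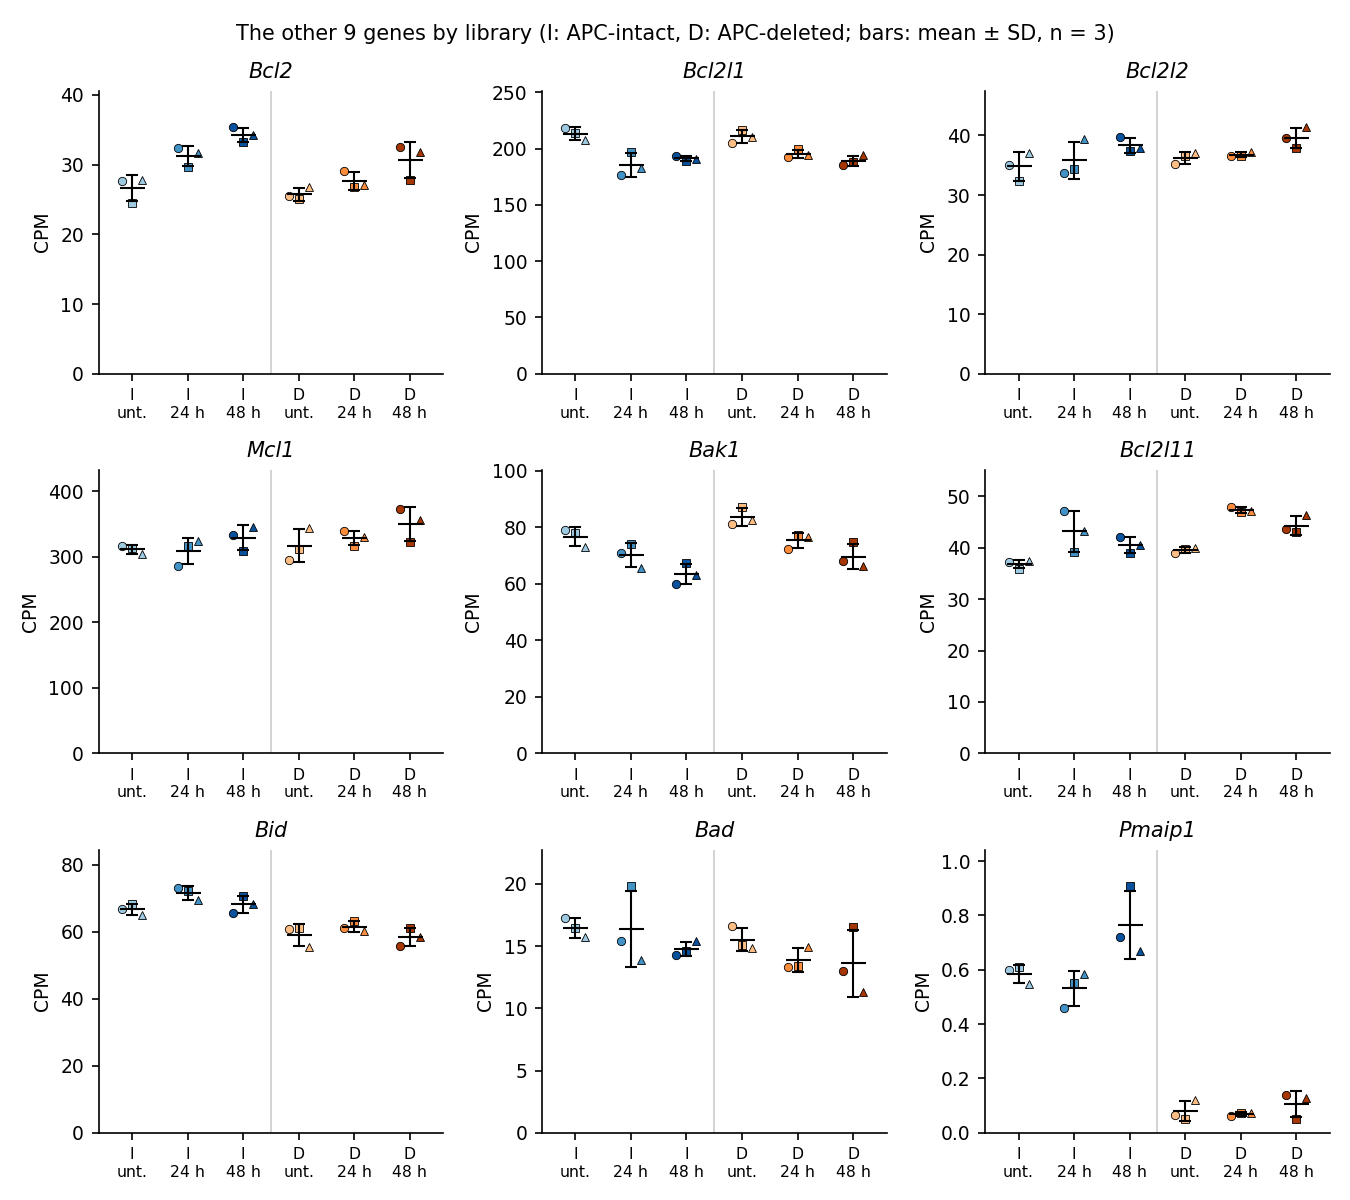
CPM of the other 9 genes (vertical axes from 0) by library for the APC-intact (I) and APC-deleted (D) lines, untreated (unt.) and at 24 h and 48 h of doxycycline; symbols are replicates 1 to 3, marks and bars the mean ± SD (n = 3). Bcl2 lies higher and Bcl2l1 lower with treatment in both lines, Bcl2 narrowly so at 24 h in APC-deleted cells. Bak1 lies lower at 48 h in both lines, and its untreated and 24 h libraries overlap in APC-intact cells. Pmaip1 lies near 0.6 CPM in untreated APC-intact and below 0.14 CPM in every APC-deleted library.

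Among the BH3-only genes, Bcl2l11, which encodes BIM and is known as a FOXO target, was higher with doxycycline at 24 h in both lines. It was 37.2, 36.0 and 37.5 CPM untreated and 47.3, 39.2 and 43.2 CPM at 24 h in APC-intact cells (log2 difference 0.23 ± 0.057). In APC-deleted cells it was 39.0, 39.8 and 40.1 CPM untreated and 48.0, 47.0 and 47.1 CPM at 24 h (0.26 ± 0.057). At 48 h the differences were 0.14 ± 0.057 and 0.16 ± 0.057, again with no overlap in either line. Of the APC-intact 24 h libraries, replicate 1, which stood apart from the rest, had the highest value, and without it the log2 difference was 0.17. Without replicate 2, which had the lowest value, it was 0.29.

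Bid, which links death receptors to mitochondria, was lower in APC-deleted cells at each time. Its untreated values were 66.9, 68.3 and 65.1 CPM in APC-intact and 60.9, 61.1 and 55.4 CPM in APC-deleted cells, and those at 48 h were 65.5, 70.6 and 68.3 CPM against 55.7, 61.2 and 58.5 CPM. The lines did not overlap at any time, with log2 differences of -0.17 ± 0.051, -0.22 ± 0.051 and -0.22 ± 0.051. Without APC-deleted untreated replicate 3 the first of these was -0.13. Bad, a BH3-only gene regulated by growth factor signalling through phosphorylation of its product, ranged from 11.3 to 19.8 CPM, and its log2 differences between the lines were within 2 SE of 0, as were those with treatment.

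Pmaip1 (NOXA), a p53 target, had the largest difference of the 10 genes between the lines at the lowest level. It had 55, 57 and 53 counts in untreated APC-intact and 6, 5 and 11 counts in untreated APC-deleted libraries, which is 0.601, 0.609 and 0.548 CPM against 0.0647, 0.0519 and 0.122 CPM. At 24 h the counts were 34, 45 and 60 against 6, 8 and 7, and at 48 h they were 64, 87 and 63 against 12, 4 and 12. Every APC-deleted library lay below every APC-intact library. The fitted differences were 7.30-fold lower in untreated cells (log2 difference -2.87 ± 0.333), 7.70-fold at 24 h (-2.95 ± 0.338) and 7.04-fold at 48 h (-2.82 ± 0.320), and the first was -3.30 without APC-deleted untreated replicate 3. With so few counts the treatment differences of Pmaip1, from -0.21 ± 0.411 to 0.44 ± 0.394, were within 2 SE of 0.

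**Figure D3:**
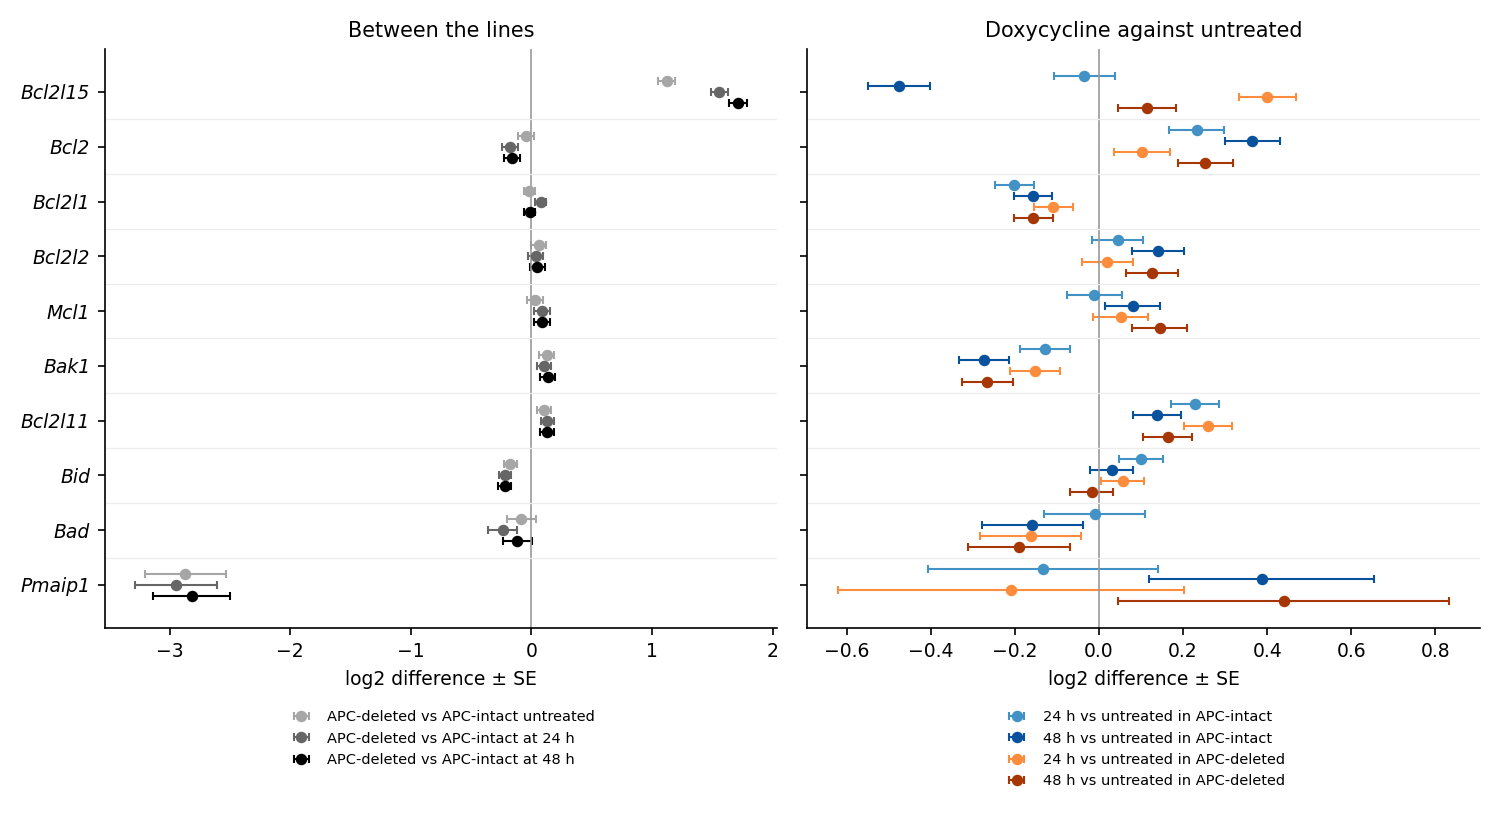
Log2 differences with SE (horizontal axes; the 2 panels have different scales) of the 10 genes between the lines (left) and between treated and untreated cells of a line (right), from the edgeR fit over all 18 libraries. Bcl2l15 and Pmaip1 stand far from 0 on the left, on opposite sides, and Bcl2l15 alone has APC-intact and APC-deleted 48 h values more than 2 SE of their difference apart on the right.

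The family genes past the threshold of adjusted p under 0.05 are counted beside all genes, and nothing is read from these counts because the genes were picked with these comparisons known. Between the untreated lines 3 of 10 passed beside 27.3% of all genes, 1 higher in APC-deleted cells (Bcl2l15, beside 13.4%) and 2 lower (Bid and Pmaip1, beside 13.8%). At 24 h 4 of 10 passed beside 31.2%, 1 higher (Bcl2l15, beside 16.0%) and 3 lower (Bcl2, Bid and Pmaip1, beside 15.1%). At 48 h 3 of 10 passed beside 34.7%, 1 higher (Bcl2l15, beside 17.8%) and 2 lower (Bid and Pmaip1, beside 16.8%). The median log2 difference of the 10 genes between the lines was 0.00, 0.06 and 0.02, and that of all genes tested 0.00, -0.01 and 0.00.

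With 24 h of doxycycline in APC-intact cells 3 of 10 passed beside 5.64% of all genes, 2 higher (Bcl2 and Bcl2l11, beside 1.39%) and 1 lower (Bcl2l1, beside 4.25%). At 48 h in that line 4 of 10 passed beside 11.3%, 1 higher (Bcl2, beside 3.81%) and 3 lower (Bcl2l15, Bcl2l1 and Bak1, beside 7.54%). In APC-deleted cells at 24 h 2 of 10 passed beside 5.85%, both higher (Bcl2l15 and Bcl2l11, beside 2.08% of all genes higher and 3.77% lower). At 48 h in that line 3 of 10 passed beside 11.0%, 1 higher (Bcl2, beside 4.52%) and 2 lower (Bcl2l1 and Bak1, beside 6.49%). Of the 23 calls on family genes in the 8 comparisons, 11 were lost in at least 1 alternative setting. The calls on Bcl2l1 were each lost in 5 or 6 of 12 settings, those on Bcl2 other than at 48 h in APC-intact cells in 5 to 7, that on Bcl2l11 at 24 h in APC-intact cells in 5, that on Bid between the untreated lines in 4 and each of those on Bak1 in 1, for APC-intact cells when 48 h replicate 1 was left out.

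**Figure D4:**
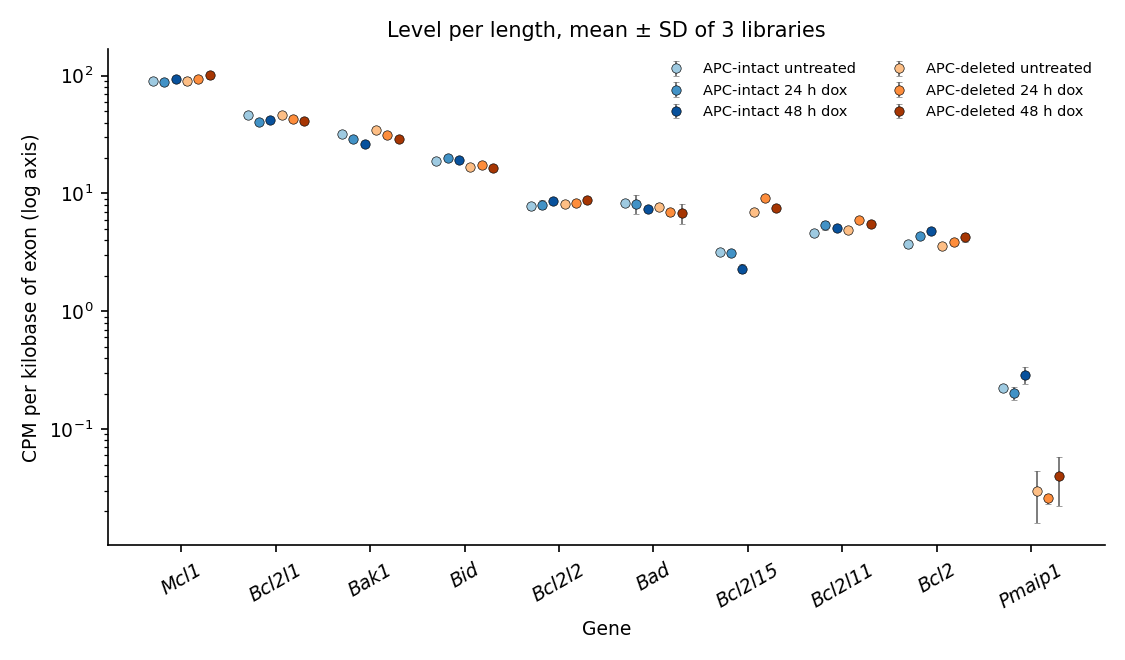
Level per length (CPM per kilobase of exon, log axis) of the 10 genes in the 6 groups, mean ± SD of 3 libraries. Mcl1 is highest in every group; Bcl2l15 lies below Bcl2l11 and Bcl2 in the 3 APC-intact groups and above both in the 3 APC-deleted groups, and Pmaip1 is lowest throughout.

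Averaged over the 6 group means the order of level per length was Mcl1 (93.1 CPM per kilobase), Bcl2l1 (43.1), Bak1 (30.5), Bid (18.1), Bcl2l2 (8.29), Bad (7.55), Bcl2l15 (5.38), Bcl2l11 (5.23), Bcl2 (4.08) and Pmaip1 (0.135). Bcl2l15 ranked the ninth of the 10 in every APC-intact group, at 2.30 ± 0.205 to 3.20 ± 0.137 CPM per kilobase. In APC-deleted cells it ranked the seventh untreated (6.96 ± 0.187), the fifth at 24 h (9.18 ± 0.567) and the sixth at 48 h (7.53 ± 0.092). The 4 BH3-only genes summed to 31.9 ± 0.700, 34.0 ± 1.65 and 32.0 ± 0.678 CPM per kilobase in APC-intact and 29.4 ± 1.17, 30.2 ± 0.279 and 28.9 ± 1.78 in APC-deleted cells, untreated, at 24 h and at 48 h. Most of each sum was Bid. The counting is not stated to use strand, and Bid, Bak1 and Bad share exon bases with Bcl2l13 (628 bases, 17.7% of the member's exon bases), Ggnbp1 (437 bases, 18.2%) and Gpr137 (524 bases, 20.5%) on the opposite strand. None of these 3 partners passed the test in any of the 8 comparisons (edgeR adjusted p 0.186 or higher, with 1 value at an unadjusted p under 0.05, for Ggnbp1, and 0 calls by DESeq2). How reads on shared bases were assigned is not given in the sources used here. The values of Bid, Bak1 and Bad may therefore lack such reads or hold reads of the partner.

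Of 16 other genes of the family and its mitochondrial relatives, 8 passed the low-count filter. The untested ones were Bcl2a1a, Bcl2a1b, Bcl2a1c and Bcl2a1d, with 0 counts in every library, and Bik, Hrk, Bcl2l10 and Bcl2l14, with at most 14 counts. Bax, the other pore-forming gene, was among those tested and passed in 0 of the 8 comparisons by edgeR (lowest adjusted p 0.112, 1 at an unadjusted p under 0.05) and in 0 by DESeq2. Bmf, a BH3-only gene linked to loss of cell attachment, was higher in APC-deleted cells without treatment, at 5.48, 3.76 and 4.57 CPM against 3.68, 3.30 and 2.80 CPM (log2 difference 0.50 ± 0.148, edgeR adjusted p = 0.0166). It fell in APC-deleted cells at 24 h to 2.85, 3.28 and 3.00 CPM (-0.60 ± 0.148, edgeR adjusted p = 0.0206). The first call was lost without APC-deleted untreated replicate 1 or APC-intact untreated replicate 3, and the second without APC-deleted untreated replicate 1 or 3 or APC-deleted 24 h replicate 1 or 3.

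Bnip3, a hypoxia-induced mitophagy gene, lay on opposite sides of its untreated level in the 2 lines at 48 h. It was 49.5, 52.4 and 48.4 CPM in untreated and 56.2, 60.1 and 64.8 CPM in 48 h APC-intact libraries, a rise of 0.27 ± 0.079 (log2, edgeR adjusted p = 0.0337). It was 44.4, 45.9 and 44.5 CPM in untreated and 41.1, 32.1 and 42.6 CPM in 48 h APC-deleted libraries, a difference of -0.22 ± 0.080 (edgeR adjusted p = 0.0865). Bnip3 was lower in APC-deleted cells at 24 h (-0.56 ± 0.080, edgeR adjusted p = 1.8e-05) and 48 h (-0.64 ± 0.080, edgeR adjusted p = 3.2e-06), and these calls held in all 12 alternative settings. The APC-intact 48 h rise was lost when any of 5 of the 6 libraries compared was left out (all but 48 h replicate 1). Bbc3 (PUMA), a p53 target, was higher at 24 h in APC-intact cells (0.37 ± 0.105, edgeR adjusted p = 0.0450) and lower in APC-deleted than APC-intact cells at 24 h (-0.29 ± 0.105, edgeR adjusted p = 0.0411). In both the groups overlapped, and both calls were lost without APC-intact 24 h replicate 1, the library that stood apart. They were also lost without replicate 2 of that group, which had the highest value (21.6 CPM), and without several others. In the remaining comparisons of this list, APC-deleted cells at 48 h against untreated and the difference of responses, 0 genes passed by edgeR, with 4 and 1 at an unadjusted p under 0.05, and 0 and 1 by DESeq2.

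Downstream of the mitochondria, all 19 genes of a list of caspases, apoptosome parts, their inhibitors and outer membrane channels were tested. Between the lines 5 passed in untreated cells, all higher in APC-deleted cells, and 6 were higher and 1 lower at 24 h and 7 higher and 1 lower at 48 h. These are 5, 7 and 8 of 19 genes, beside 27.3%, 31.2% and 34.7% of all genes called in the same comparisons. Casp2 was higher in APC-deleted cells by 0.27, 0.31 and 0.29 (log2) untreated, at 24 h and at 48 h and the channel gene Vdac1 by 0.16, 0.20 and 0.21, each passing at every time (largest edgeR adjusted p 0.0266). The untreated call on Vdac1 was lost without APC-deleted untreated replicate 3 or APC-intact untreated replicate 2 or 3. The median log2 difference of the list was 0.09, 0.04 and 0.04.

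With doxycycline 1 of the 19 genes fell at 24 h in each line and at 48 h in APC-deleted cells, and 3 fell at 48 h in APC-intact cells, which were all the calls on this list. Of all genes 5.64% and 11.3% were called at 24 h and 48 h in APC-intact and 5.85% and 11.0% in APC-deleted cells. Htra2, a mitochondrial protease that can release caspases from inhibition, was the gene shared by these counts, with log2 differences of -0.28 ± 0.056, -0.32 ± 0.056, -0.21 ± 0.056 and -0.25 ± 0.056 in APC-intact 24 h and 48 h and APC-deleted 24 h and 48 h cells (largest edgeR adjusted p 0.0263). The call at 24 h in APC-deleted cells was lost whichever of the 6 libraries compared was left out, and that at 24 h in APC-intact cells without untreated replicate 1. When each pair of groups was fitted alone, the calls at 24 h in APC-intact and at 48 h in APC-deleted cells were lost as well (highest edgeR adjusted p over the alternatives 0.0816 and 0.0758). For the difference of responses 0 genes passed by edgeR, with 1 at an unadjusted p under 0.05 and 0 by DESeq2.

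All 10 genes of the death receptor list were tested. Between the lines 1 was higher and 3 lower in untreated APC-deleted cells, 2 higher and 1 lower at 24 h, and 3 higher and 1 lower at 48 h, or 4, 3 and 4 of 10 beside 27.3%, 31.2% and 34.7% of all genes. Tnfrsf10b, the mouse TRAIL receptor gene, was higher in APC-deleted cells at each time (0.31, 0.52 and 0.45, largest edgeR adjusted p 1.8e-04), and the adaptor gene Fadd was lower (-0.28, -0.42 and -0.48, largest edgeR adjusted p 0.0380). The untreated call on Fadd was lost when any of 5 of the 6 libraries compared was left out, and with no filter on low counts. Fas fell at 48 h in APC-intact cells (-0.50 ± 0.096, edgeR adjusted p = 0.00196) and rose at 24 h in APC-deleted cells (0.33 ± 0.093, edgeR adjusted p = 0.0440), the latter lost whichever of the 6 libraries was left out and with no filter on low counts. With treatment 0 genes of this list passed at 24 h in APC-intact cells by edgeR (1 at an unadjusted p under 0.05, 0 by DESeq2), 3 fell at 48 h in that line, and 1 rose at 24 h and 2 fell at 48 h in APC-deleted cells, beside 5.64%, 11.3%, 5.85% and 11.0% of all genes called in these 4 comparisons. For the difference of responses 0 passed by edgeR, with 2 at an unadjusted p under 0.05 and 1 by DESeq2.

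Of 17 regulators of family genes 16 were tested. Foxo3, a transcription factor known to act on Bcl2l11, rose at 24 h in APC-intact (0.28 ± 0.052, edgeR adjusted p = 0.00265) and APC-deleted cells (0.31 ± 0.052, edgeR adjusted p = 0.00119), and at 48 h in APC-deleted cells (0.20 ± 0.052, edgeR adjusted p = 0.0180). The last call was lost without APC-deleted untreated replicate 3 or APC-deleted 48 h replicate 1 or 3, and with no filter on low counts. When each pair of groups was fitted alone it was lost too, as was the APC-intact 24 h call (edgeR adjusted p = 0.0574). Mdm2, which targets p53 for degradation and is itself a p53 target, rose in APC-deleted cells by 0.19 at 24 h and 0.20 at 48 h (edgeR adjusted p 0.0254 and 0.0125). Its mean was also higher with doxycycline in APC-intact cells, where it did not pass at either time. There it was 70.1 ± 1.53 CPM untreated, 76.5 ± 1.59 CPM at 24 h and 75.3 ± 2.00 CPM at 48 h. Both Mdm2 calls were lost without APC-deleted untreated replicate 1 or 3, each without further libraries of its treated group and with no filter on low counts, and that at 48 h also when that pair of groups was fitted alone. Foxo4 was higher in APC-deleted cells at each time (0.19, 0.15 and 0.15, largest edgeR adjusted p 0.0169). This call was lost at 24 h without APC-deleted 24 h replicate 1 or APC-intact 24 h replicate 3. At 48 h it was lost without APC-intact 48 h replicate 3. With no filter on low counts, or with the pair of groups fitted alone, it was lost at both times. With doxycycline Foxo4 moved opposite to Foxo3 at 24 h. It fell in APC-deleted cells from 37.1 ± 0.793 to 33.1 ± 1.19 CPM, the 1 lower call of this list there. In APC-intact cells its 24 h difference was -0.13 ± 0.045 (edgeR adjusted p = 0.114). Counts for the list were 2 higher and 2 lower between the untreated lines, 1 and 3 at 24 h, 3 and 0 at 48 h, 1 and 0 at 24 h and 0 and 1 at 48 h in APC-intact cells, and 2 and 1 at 24 h and 3 and 0 at 48 h in APC-deleted cells. Between the lines this is 4, 4 and 3 of 16 beside 27.3%, 31.2% and 34.7% of all genes, and with treatment 1 and 1 in APC-intact cells beside 5.64% and 11.3%, and 3 and 3 in APC-deleted cells beside 5.85% and 11.0%. For the difference of responses 0 passed by edgeR, 0 at an unadjusted p under 0.05 and 0 by DESeq2.

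The genes beside Bcl2l15 on chromosome 3 were set next to it, 5 tested genes on each side. Ptpn22 (chr3:103859795-103912247), a tyrosine phosphatase gene known from lymphocytes and the next gene after Bcl2l15 on the same strand, passed the test in 5 comparisons, each time in the direction of the Bcl2l15 difference. Its level was 107, 112 and 109 CPM in untreated, 101, 99.3 and 109 CPM in 24 h and 83.4, 84.0 and 83.9 CPM in 48 h APC-intact libraries. In APC-deleted libraries it was 130, 138 and 126 CPM untreated, 146, 155 and 154 CPM at 24 h and 123, 107 and 122 CPM at 48 h. Ptpn22 was higher in APC-deleted cells by 0.27 ± 0.056 untreated, 0.55 ± 0.056 at 24 h and 0.49 ± 0.056 at 48 h (largest edgeR adjusted p 0.00135). It fell at 48 h in APC-intact cells (-0.38 ± 0.056, edgeR adjusted p = 1.3e-04) and rose at 24 h in APC-deleted cells (0.20 ± 0.056, edgeR adjusted p = 0.0349). At 48 h in APC-deleted cells its difference was -0.16 ± 0.056 (edgeR adjusted p = 0.0697), where that of Bcl2l15 was 0.11 ± 0.069, and its difference of 48 h responses was 0.22 ± 0.079 (edgeR adjusted p = 0.544). The APC-deleted 24 h call was lost without APC-deleted untreated replicate 1 or 3 or APC-deleted 24 h replicate 2 or 3, and the other 4 calls on Ptpn22 held in all 12 alternative settings.

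**Figure D5:**
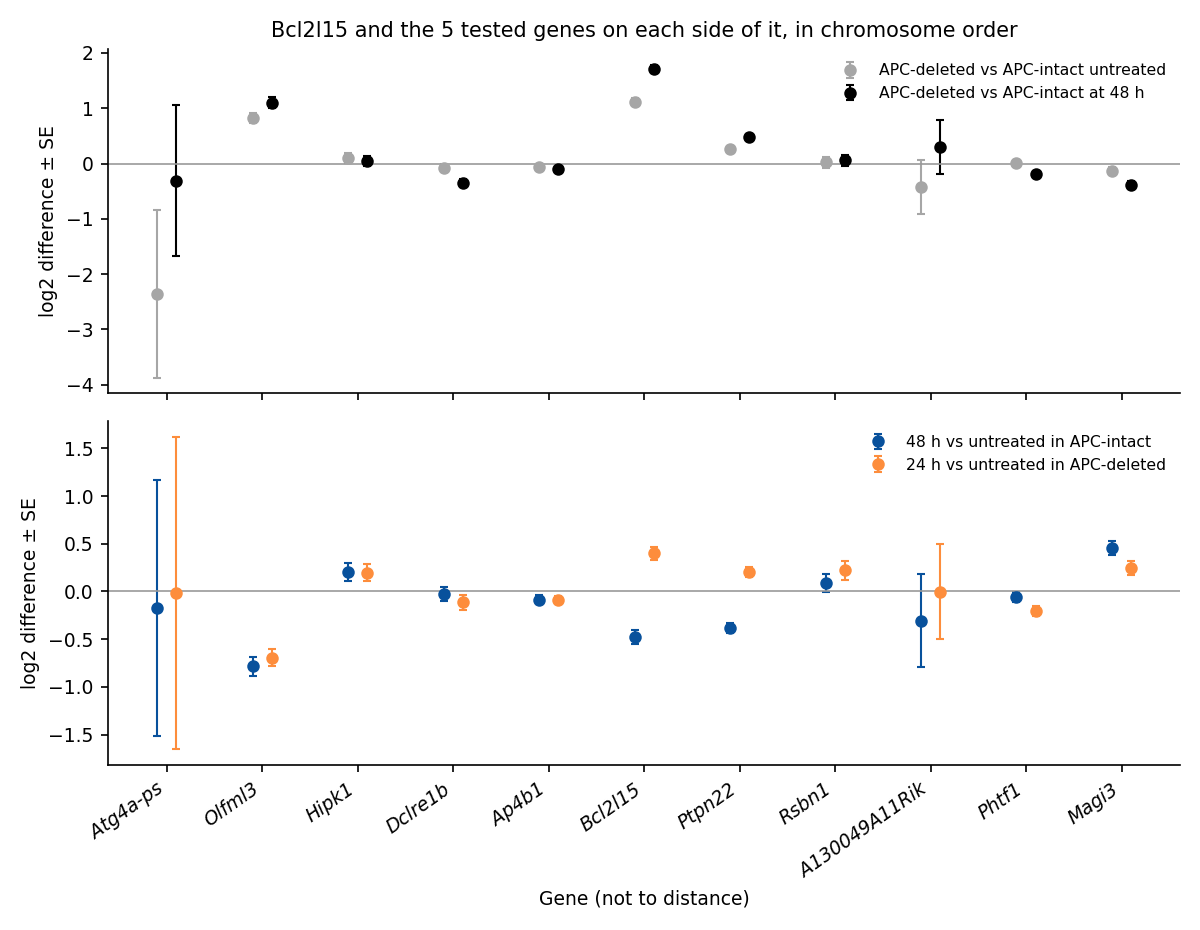
Log2 differences ± SE (vertical axes) of Bcl2l15 and the 5 tested genes on each side of it, in chromosome order and not to distance, between the lines untreated and at 48 h (top) and with treatment in APC-intact cells at 48 h and APC-deleted cells at 24 h (bottom). Bcl2l15 and Ptpn22 have the same signs in the 4 comparisons drawn. At 48 h in APC-deleted cells, not drawn, their signs were opposite (0.11 ± 0.069 for Bcl2l15 and -0.16 ± 0.056 for Ptpn22). The wide bars belong to genes with at most 4.12 and 0.333 CPM in any library.

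Olfml3, the fourth tested gene before Bcl2l15 and an extracellular matrix gene, was also higher in APC-deleted cells (0.83, 0.76 and 1.10, largest edgeR adjusted p 3.7e-06) but fell with doxycycline in both lines at both times (-0.63, -0.79, -0.69 and -0.51, largest edgeR adjusted p 0.00113). Of the 10 neighbours 2, 3 and 5 passed between the lines untreated, at 24 h and at 48 h, 2 and 3 in APC-intact cells at 24 h and 48 h, and 3 and 3 in APC-deleted cells. The shares of all genes called were 27.3%, 31.2% and 34.7% between the lines, 5.64% and 11.3% in APC-intact cells and 5.85% and 11.0% in APC-deleted cells. For the difference of responses 0 of 10 passed by edgeR, with 4 at an unadjusted p under 0.05 and 0 by DESeq2. The nearest genes on the 5′ side, Ap4b1 and Dclre1b, did not follow it: Ap4b1 passed in 0 of 8 comparisons by edgeR (3 at an unadjusted p under 0.05, 0 by DESeq2), and Dclre1b was lower in APC-deleted cells at 48 h, both than APC-intact cells (-0.35, edgeR adjusted p = 0.00143) and than untreated cells (-0.29, edgeR adjusted p = 0.0188). The latter call on Dclre1b was lost without APC-deleted untreated replicate 1 or 2 or APC-deleted 48 h replicate 3.

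Among the 5 tested genes of at least 1 CPM on average whose 6 group means followed those of Bcl2l15 most closely were Flt1, which encodes a VEGF receptor, Neurl3, Tns4 and Prl2c2. Their root-mean-square differences from Bcl2l15, over 6 centred group means of log2 (CPM + 0.01), were 0.096, 0.17, 0.18 and 0.19. Flt1 stood at 1.67, 1.42 and 1.11 CPM in APC-intact and 3.42, 4.05 and 3.29 CPM in APC-deleted cells, untreated, at 24 h and at 48 h. This likeness is a description over 6 means of the same libraries.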

How the data were processed

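RNA from 18 MC38 libraries, 3 in each of 6 groups named by the sample titles, was sequenced. The values used are the whole-number read counts per gene that the authors deposited. The submitters' processing notes name STAR, HTSeq and mm10, with no versions, and the strand setting is not given in the sources used here. The authors also deposited RPKM values, which entered no result. Between 22.9 and 25.5% of a library's total named no gene and was left out. The 18 pairs of replicates within groups all differed beyond sampling noise (chi-square per degree of freedom 7.52 to 76.7), and each library was counted separately.

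Counts were fitted with edgeR 4.0.16 in R 4.3.3, after filterByExpr by group and TMM scaling, with a coefficient for each group over the 18 libraries (robust glmQLFit, glmQLFTest). Adjusted p-values are those of Benjamini and Hochberg over the 15006 genes tested, with a threshold of 0.05. A log2 difference is the fitted one, its SE was taken from the F statistic, and CPM are counts per library size after TMM scaling. In simulated counts for the untreated lines (14121 genes, 200 changed), 84% of 1.5-fold and 97% of 2-fold changes were recovered. DESeq2 1.42.0, its size factors, no filter, the groups compared alone, a replicate block and leaving out each library were the alternatives. Leaving out both libraries that stood apart was chosen after seeing the data, as were the settings with no filter and with the groups compared alone for the family genes.

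The 10 genes, the 4 further gene lists and the comparisons were chosen with earlier results of these data known. All 10 family genes are described. Of the other lists, each called gene of the first and up to 4 genes of the others with the smallest adjusted p are named, with the 5 tested genes on each side of Bcl2l15, tested genes that overlap a family gene and the 5 genes most like it. Some genes that these rules name are not reported here. Mx2, Cxcl1 and Timp1 were named after their values were seen. Gene places are those of the deposited data, and in GENCODE vM21 7 of the 10 were the same.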

Additional observations from a re-analysis of the deposited data

Results flagged for a closer look

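Bcl2l15 had 48 h responses of opposite sign in the 2 lines. They were -0.48 ± 0.074 (log2 ± SE) in APC-intact and 0.11 ± 0.069 in APC-deleted cells, the latter under 2 SE from 0. Every treated library lay below every untreated one in APC-intact cells and above in APC-deleted cells. Both responses set run 2 against run 1, and run and treatment cannot be told apart in them. The response in APC-deleted cells exceeded that in APC-intact cells by 0.5898 (log2), a comparison in which the run cancels. As Bcl2l15 was picked with this value known, the difference is given with no p-value. Nothing is read from its call, which was lost in 14 of 18 alternative settings.

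Bnip3 had responses of opposite sign in the 2 lines, with no overlap of treated and untreated libraries at 24 h or 48 h. At 24 h they were 0.18 ± 0.079 in APC-intact (edgeR adjusted p = 0.204) and -0.22 ± 0.080 in APC-deleted cells (edgeR adjusted p = 0.108). Of the 24 h and 48 h responses only the APC-intact 48 h rise passed, and it was lost in 5 of 12 alternative settings. The response in APC-deleted cells minus that in APC-intact cells was -0.4064 (log2) at 24 h, a difference that was not tested and that also sets run 2 against run 1 in 1 line only. At 48 h it was -0.4869, with an edgeR adjusted p of 0.196, which ran from 0.0175 to 0.555 over 18 alternative settings and passed in 1 of them.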

How the results depend on the processing

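No log2 difference of a family gene that lay more than 2 SE from 0, and no call on a gene of the lists or a neighbour, reversed its direction in any alternative, and 1013 of 1019 recomputed differences of family genes moved by less than the SD between replicates. The exception for Bcl2l15 was its 48 h difference in APC-deleted cells, 0.0814 without APC-deleted untreated replicate 1 and up to 0.121 when another library was left out. Of 1080 recomputed calls on other genes, 201 no longer passed. Counts of called genes depended on the setting, and the cause was not tested. With the groups compared fitted alone, 258 genes passed in APC-intact cells at 24 h and 4367 after 48 h, 2473 at 24 h and 433 at 48 h in APC-deleted cells, and 0 for the difference of responses; the share of calls that were higher was then 46.7% rather than 33.6% at 48 h in APC-intact and 48.6% rather than 35.5% at 24 h and 32.6% rather than 41.1% at 48 h in APC-deleted cells. DESeq2 called 1388 at 24 h in APC-deleted cells and 58 for the difference of responses, for which no filter on low counts gave 14. Without both libraries that stood apart the counts were 2984 at 48 h in APC-intact, 1564 and 3009 at 24 h and 48 h in APC-deleted cells, and 2 for the difference of responses.

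Leaving out 1 library at a time gave 3101 to 3579 called genes between the untreated lines, 3608 to 4631 at 24 h and 4231 to 5219 at 48 h, and 364 (without APC-intact untreated replicate 1) to 1259 at 24 h and 822 (without APC-intact untreated replicate 1) to 1409 at 48 h in APC-intact cells. It gave 428 (without APC-deleted 24 h replicate 2) to 533 at 24 h and 882 (without APC-deleted untreated replicate 1) to 2816 (without APC-deleted 48 h replicate 2) at 48 h in APC-deleted cells, and 0 to 3 for the difference of responses.

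Over 45 pairs of same-numbered libraries the deviations from the group means correlated at -0.0883 to 0.237 (median 0.0203, against -0.0156 for other numbers), with 4 over 0.1. All 3 pairs were over 0.1 in 1 of 15 pairs of groups, and the numbers were not taken to pair the samples. A replicate block gave 4261, 4837 and 5373 called genes between the lines untreated, at 24 h and at 48 h, 965 and 2173 in APC-intact and 988 and 1801 in APC-deleted cells at 24 h and 48 h, and 3 for the difference of responses. Depth limits Pmaip1, with 4 to 87 counts per library, and Tdo2, with 6 to 29.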
